A study of Rattus norvegicus with 12 samples.

Results

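The enzymes that make, recycle and use glutathione, and the other enzymes that remove superoxide and peroxides, were followed in epididymal fat of rats with and without food. Members were the probes whose annotated gene symbol named a cytosolic or microsomal glutathione transferase, a peroxiredoxin, a superoxide dismutase or a thioredoxin reductase, plus Gpx1, Gpx2, Gpx4, Gsr, Gss, Gclc, Gclm, Cat, Nqo1 and Txn1. They came to 46 probes of 42 genes, out of 22523 probes and 13337 named genes on the array. The rule used names only and no measured value, but it was chosen with earlier results of these data known. Total RNA from the epididymal fat pad of male Sprague-Dawley rats, aged 40 days, was hybridised to 12 positions of 1 Illumina bead chip, with 1 array per rat. Of these, 6 arrays carry the label food removed, for 6 h (arrays labelled fasted below), and 6 carry the label ad lib, rats that kept their chow. The study's methods give a somewhat longer time without food than the labels do. The animals were otherwise untreated, and the tissue was whole fat pad, so that fewer cells of a type and less RNA per cell cannot be told apart.

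Glutathione is a tripeptide that is made from glutamate, cysteine and glycine and carries a reactive thiol. Glutathione peroxidases spend it to reduce hydrogen peroxide and lipid peroxides, glutathione transferases join it to reactive lipid aldehydes and foreign compounds, and glutathione reductase restores the reduced form with NADPH. Superoxide dismutases, catalase, peroxiredoxins and the thioredoxin system work beside it, and in fat cells they meet peroxides that come from the oxidation and storage of fatty acids. Many of these genes are known to be induced by NRF2 through the antioxidant response element of their promoters.

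None of the enzymes passed the test between the labelled groups. Of the 39 member probes that were detected on enough arrays to be tested (36 genes), 0 passed an adjusted p of 0.05 in limma's moderated test with Benjamini-Hochberg adjustment, where 2.47% of all 12196 tested probes did (1.05% higher and 1.42% lower in arrays labelled fasted). At an unadjusted p under 0.05 there were 6 of 39 member probes (15.4%), beside 15.9% of all tested probes. The groups of 6 arrays overlapped for every tested member probe, and did not overlap for 2.5% of all tested probes. The median difference of the members was 0.09 on the log2 scale (range -0.55 to 1.03), beside -0.02 for all tested probes. It was above 0 for 25 of the 39 member probes (64.1%), beside 46.6% of all tested probes. The 95% interval of the difference lay within a 2-fold change in either direction for 33 of the 39 probes (84.6%), beside 91.8% of all tested probes. The 6 that could not be bounded in this way were Cat, Gpx2, Gsta5, Gstm1, Gstm5 and Gstm7.

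All differences are given as arrays labelled fasted minus arrays labelled ad lib, and the direction opposes the one the study assigns to food deprivation. Angptl4, an inhibitor of lipoprotein lipase that is known to be induced in fasted fat, had a log2 signal of 8.82 to 11.06 in arrays labelled fasted and 11.91 to 12.29 in arrays labelled ad lib by its brighter probe. Pdk4, the kinase that shuts off pyruvate dehydrogenase and is also known as a fasting gene, lay at 6.17 to 7.93 and 9.27 to 10.34. The labels were kept as deposited, and which group was without food was not settled here.

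The raw median signal of the arrays was 105.3 to 139.6 in arrays labelled fasted and 91.1 to 137.3 in arrays labelled ad lib, and 51.2% to 59.6% of the probes were detected per array. All 7 adipocyte marker genes on the array were detected on all 12 arrays, with a log2 summed signal of 16.79 to 17.09 in arrays labelled fasted and 17.01 to 17.22 in arrays labelled ad lib. None of them passed the test, and their differences were above 0 for 3 (Fabp4 0.07, Cfd 0.04 and Lpl 0.02) and below 0 for 4. The 2 with the smallest p were Lipe and Pnpla2, lipases of the fat droplet. They differed by -0.53 (adjusted p = 0.108) and -0.40 (adjusted p = 0.134), the latter without overlap of the groups. The endothelial marker Cldn5 was lower in arrays labelled fasted, with a difference of -0.88 (adjusted p = 0.0482), the 1 call among 6 endothelial markers. Markers of other cell types were present too. The log2 summed signal of the macrophage markers was 12.74 to 13.36 in arrays labelled fasted and 13.16 to 13.56 in arrays labelled ad lib, that of the endothelial markers 12.60 to 13.61 and 13.35 to 13.80, and that of the red blood cell markers had a median of 16.14 and 16.27. Markers of epididymis epithelium stood high on 4 arrays, fasted 3, 4 and 5 and ad lib 6, and the sum of these markers ran from 8.50 to 17.02 in arrays labelled fasted and from 8.65 to 11.51 in arrays labelled ad lib. A marker was counted as high above a log2 signal of 8, and an array was set among these 4 if 2 or more markers were. The comparisons were also made without the 4 arrays for 37 of the 39 member probes, since Gsta5 and Gstm3 then fell below the filter on detection. The part of other cell types in the comparisons below was not tested. Position on the chip nearly coincided with the group, since positions 1 and 3 to 7 held the food removed samples and 2 and 8 to 12 the others.

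**Figure D1:**
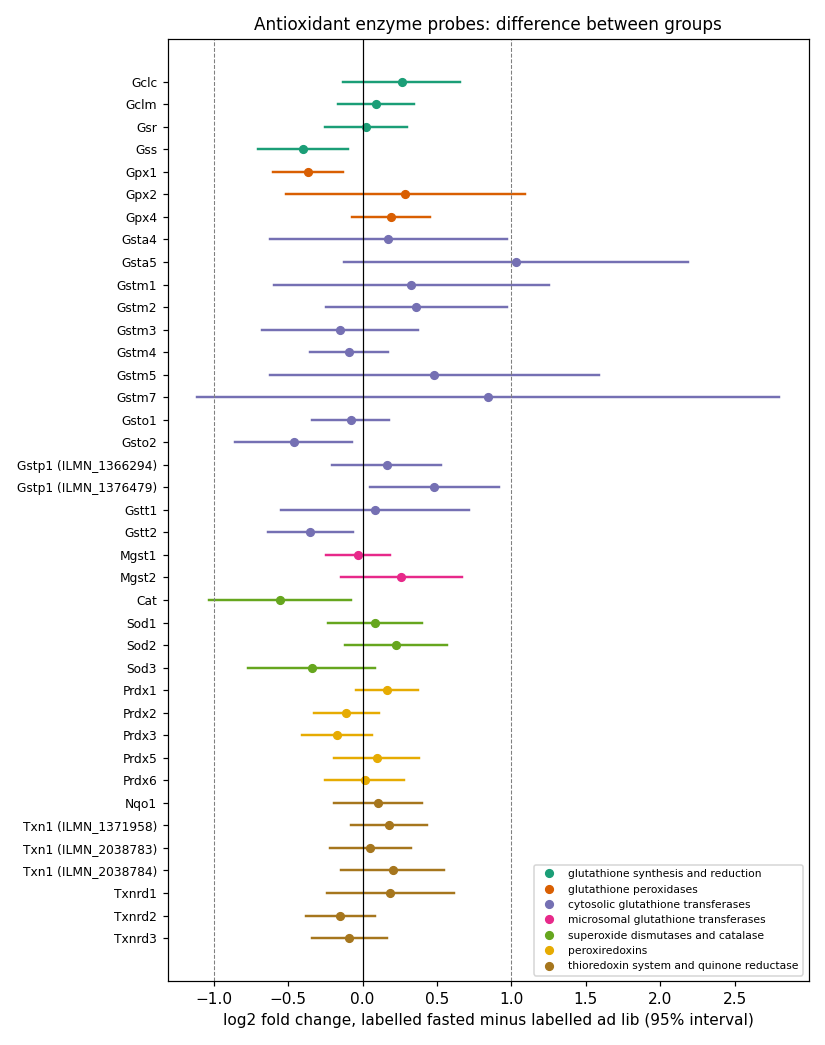
The log2 fold change, arrays labelled fasted (n = 6) minus arrays labelled ad lib (n = 6), of each of the 39 tested member probes, with its 95% interval as a bar and colours for the role of the enzyme. Dashed lines mark a 2-fold change, and the 6 probes whose intervals leave 0 to one side are Gss, Gpx1, Gsto2, Gstt2, Cat and 1 of the Gstp1 probes.

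Glutathione synthesis is set by glutamate-cysteine ligase, whose catalytic subunit is Gclc and whose modifier subunit is Gclm. The difference was 0.26 (SE 0.18) for Gclc and 0.09 (SE 0.12) for Gclm, with adjusted p of 0.532 and 0.775. Gss, glutathione synthetase, adds the glycine in the last step. Its log2 signal was 8.28, 8.80 and 8.97 (lowest, median and highest) in arrays labelled fasted and 8.86, 9.22 and 9.39 in arrays labelled ad lib. The lowest value was that of fasted 4, and the 2 lowest arrays labelled ad lib lay among the arrays labelled fasted. The difference was -0.40 (SE 0.14), with an adjusted p of 0.162 in limma and 0.0173 in the exact permutation test, two-sided and not adjusted. It was -0.20 without the 4 arrays that held epididymis markers. These include fasted 4, the lowest array of Gss, and ad lib 6, its highest at 9.39. Gsr, glutathione reductase, differed by 0.02 (SE 0.13), with a 95% interval of -0.25 to 0.30.

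Among the glutathione peroxidases, Gpx1, the selenoprotein that reduces hydrogen peroxide in the cytosol and mitochondria, had the smallest p of all members. Its log2 signal was 11.59, 11.94 and 12.05 in arrays labelled fasted and 11.99, 12.30 and 12.44 in arrays labelled ad lib. The groups overlapped through ad lib 4 alone, which at 11.99 lay below the others of its label, and fasted 3 was the lowest array at 11.59. The difference was -0.37 (SE 0.11, 95% interval -0.60 to -0.13), with an adjusted p of 0.103 in limma and an exact permutation p of 0.00649, two-sided and not adjusted. When arrays were weighted by their quality the adjusted p became 0.0163, but that fit called 840 of all tested probes, where the main fit called 301. The adjusted p of Gpx1 was 0.676 after scaling by array medians instead of quantiles, and 0.432 with chip position as a covariate. Gpx4, which reduces phospholipid peroxides within membranes, differed by 0.19 (SE 0.12, adjusted p = 0.478). Gpx2, known as the peroxidase of gut epithelium, differed by 0.29 (SE 0.37, adjusted p = 0.774) and was low on most arrays, at 5.22 to 6.45 on 9 of them and 7.03 to 7.39 on the other 3.

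The promoters of Gpx1 and Gss are shown because these genes had the smallest p among the members. Each is the 250 bases before the RefSeq transcription start in build GRCr8, 5′ to 3′ on the gene's strand, at chr8:117905212-117905461 (plus strand) for Gpx1 and chr3:164538307-164538556 (minus strand) for Gss. Capitals would mark the core of the antioxidant response element, TGACNNNGC, searched on both strands, and neither window holds it. These letters occur in 9 of the 40 promoters of member genes in the reference table (22.5%, 35 genes) and in 3373 of all 33469 promoters of that length (10.1%). The promoters that hold it belong to Sod2, Gstp1, Gstm5, Gstm7, Gclm, Prdx1, Gpx2, Txnrd1 and Gsta3. A match is a description of the letters and not of a bound site.
Gpx1: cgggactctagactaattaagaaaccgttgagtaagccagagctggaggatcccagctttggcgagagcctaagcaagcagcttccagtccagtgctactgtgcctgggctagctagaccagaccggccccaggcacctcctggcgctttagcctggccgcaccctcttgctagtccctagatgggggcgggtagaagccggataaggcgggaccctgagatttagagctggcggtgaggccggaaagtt
Gss: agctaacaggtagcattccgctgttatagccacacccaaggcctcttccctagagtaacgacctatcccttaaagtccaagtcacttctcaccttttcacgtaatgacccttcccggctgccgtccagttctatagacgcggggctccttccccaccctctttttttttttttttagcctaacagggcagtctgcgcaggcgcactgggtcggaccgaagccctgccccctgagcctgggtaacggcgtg

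**Figure D2:**
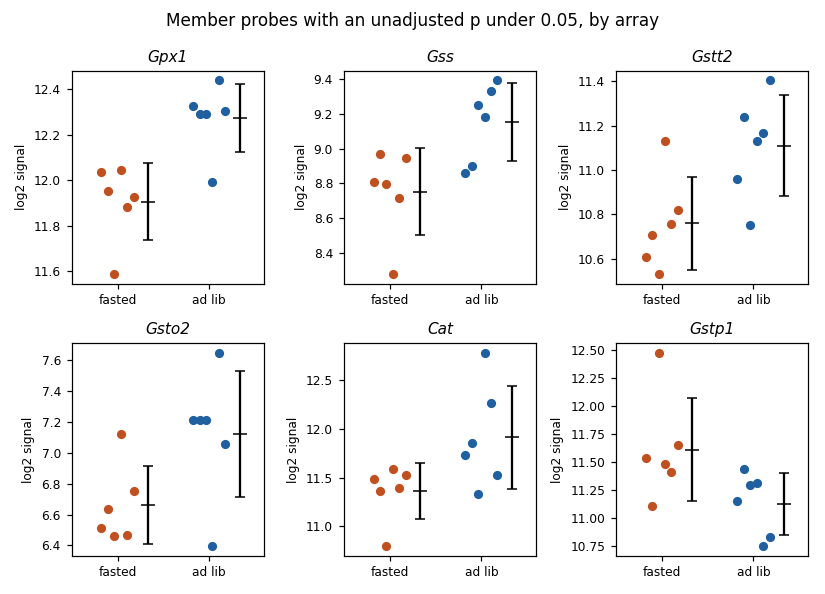
The log2 signal on each array for the 6 member probes with an unadjusted p under 0.05 in limma, with 1 point per array and the mean ± SD beside each group (n = 6 labelled fasted, n = 6 labelled ad lib). Gpx1, Gss, Gstt2, Gsto2 and Cat have the lower mean in arrays labelled fasted and the Gstp1 probe the higher one, and the groups overlap in all 6 panels.

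The cytosolic glutathione transferases were the family with the most members, 21 probes of 19 genes, of which 14 probes could be tested. Their median difference was 0.17, with 9 above and 5 below 0. The theta enzyme Gstt2 had the smallest p. Its log2 signal was 10.53, 10.73 and 11.13 in arrays labelled fasted and 10.75, 11.15 and 11.40 in arrays labelled ad lib. Apart from the highest array labelled fasted and the lowest labelled ad lib, the groups did not overlap. The difference was -0.35 (SE 0.13), with a p of 0.0195 in limma (0.201 adjusted) and an exact permutation p, not adjusted, of 0.026. The difference was -0.35 without the 4 arrays as well. Gstt1, the other theta enzyme tested, differed by 0.08 (SE 0.29) and ran from 8.82 to 10.56 within the arrays labelled ad lib alone.

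The omega enzymes act on dehydroascorbate and on arsenic compounds. Gsto2 differed by -0.46 (SE 0.18, adjusted p = 0.229). Its adjusted p was 0.0278 with array weights, 0.672 after scaling by array medians and 0.666 with chip position as a covariate. Gsto2 lay at 6.46 to 7.12 in arrays labelled fasted and 6.40 to 7.65 in arrays labelled ad lib. Gsto1 differed by -0.08 (SE 0.12, adjusted p = 0.810).

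Gstp1, the pi enzyme, is known to conjugate electrophiles in many tissues and had 3 probes. The probe ILMN_1376479 lay at 11.11, 11.51 and 12.47 in arrays labelled fasted and 10.75, 11.22 and 11.43 in arrays labelled ad lib. Its difference was 0.48 (SE 0.20, adjusted p = 0.257). The probe ILMN_1366294 differed by 0.16 (SE 0.17, adjusted p = 0.703), and ILMN_1530215 was detected on 0 arrays. Both tested probes thus had the same sign, with intervals of 0.05 to 0.92 and -0.20 to 0.53, and without the 4 arrays the difference of ILMN_1376479 was 0.25.

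Among the alpha enzymes, which reduce lipid peroxides and conjugate their aldehydes, Gsta4 differed by 0.17 (SE 0.37, adjusted p = 0.875), and by -0.34 without the 4 arrays. Gsta5 was detected on 5 arrays labelled fasted and 1 labelled ad lib, the least that the filter allowed, so that it was tested only through the group where it was higher and most of the other group lay at background. The difference was 1.03 (SE 0.54, adjusted p = 0.373), and 0.52 without background correction. It lay at 4.45, 5.81 and 7.30 in arrays labelled fasted and 4.33, 4.49 and 7.18 in arrays labelled ad lib, where ad lib 6 held the highest value. Gsta1 and Gsta2 were detected on 0 arrays and Gsta3 on 3, and these were not tested. Gstt3 was also detected on 0 arrays.

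The mu enzymes Gstm1, Gstm2, Gstm3, Gstm4, Gstm5 and Gstm7 differed by 0.33, 0.36, -0.15, -0.09, 0.48 and 0.84, with adjusted p from 0.592 to 0.824. Gstm3 was detected on 7 arrays, just above the filter, while Gstm6 and Gstm6l were detected on 3 arrays and not tested. The SE was 0.91 for Gstm7, 0.52 for Gstm5 and 0.43 for Gstm1, where the median SE of the tested members was 0.15. The spread lay within the groups. Gstm7 was at 7.43, 8.05 and 11.97 in arrays labelled fasted and at 7.23, 7.69 and 11.51 in arrays labelled ad lib.

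The 3 arrays with the high mu signals were fasted 3, fasted 5 and ad lib 6. They were also the 3 arrays on which Defb1, a defensin on the list of epididymis markers, stood above 8, at 8.3 to 10.9. Gstm7 lay at 11.45 to 11.97 on these arrays and at 7.23 to 8.23 on the other 9. Gstm6 lay at 8.74 to 10.51 and 4.39 to 5.03, and Gstm6l at 8.09 to 9.35 and 4.56 to 5.03. Gstm5 lay at 11.98 to 12.32 and 9.53 to 10.30, Gstm1 at 11.24 to 12.69 and 9.90 to 10.47, and Gstm2 at 10.27 to 11.43 and 9.46 to 9.98. Outside the mu family, Gsta3 lay at 6.15 to 8.33 and 4.47 to 5.18, Gsta4 at 8.52 to 9.58 and 7.14 to 8.28, and Gpx2 at 7.03 to 7.39 and 5.22 to 6.45. These 9 were 21.4% of the 42 member probes that were detected on any array, beside 5.8% of all 15621 such probes. The mu probes among them may read RNA of each other's genes, so the 9 are not independent. Gstm3 and Gstm4 did not stand apart on the 3 arrays.

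The 3 arrays were picked out by Defb1, 1 of the 13 epididymis markers on the array, and not by a label. Defb1 was not set for this in advance, and Lcn5, a lipocalin, was above 8 on fasted 4 too. These ranges and shares are thus a description with no test. Of the 13 markers, 2 lay wholly above the other arrays on these 3, Lcn5 and Defb1 itself. Fasted 3 had 10 markers above 8, and fasted 5 and ad lib 6 had 2 each. Adam7, Adam28, Cst11, Cst12, Lcn9, Rnase9 and Rnase10 lay at 10.70 to 14.44 on fasted 3 and at 4.32 to 5.88 on fasted 5 and ad lib 6. Gpx5, the epididymis-specific peroxidase, was high only on fasted 3 (15.0) among them and lay at 4.7 and 4.8 on fasted 5 and ad lib 6. Fasted 4, with Lcn5 at 9.0 and Gpx5 at 8.3, had no high mu signals. Of the 4 mesothelium markers on the array, the keratins Krt8 and Krt19, which many epithelia express, were at 11.83 to 12.71 and 11.99 to 12.32 on the 3 arrays and at 9.37 to 10.06 and 9.47 to 10.96 on the other 9. The other members of that list lay the opposite way, with Wt1 at 7.16 to 7.81 and 8.06 to 8.99 and Msln at 10.16 to 11.43 and 11.36 to 12.72. The part of epididymis RNA in the mu signals was not tested. Without the 4 arrays the differences were 0.03 (SE 0.16) for Gstm7, 0.19 (SE 0.16) for Gstm5, 0.06 for Gstm2 and -0.14 for Gstm1.

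**Figure D3:**
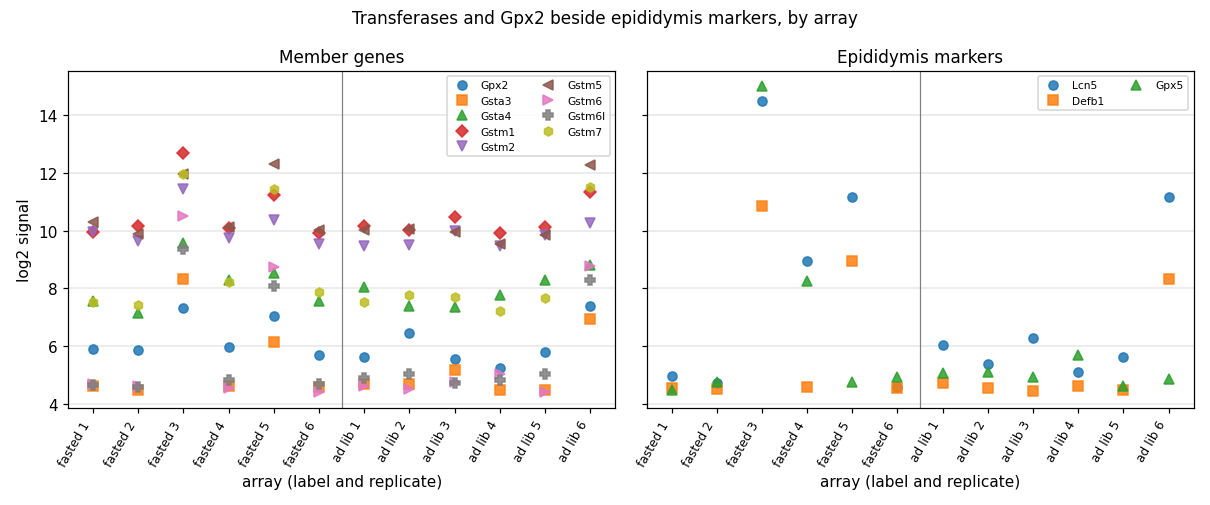
The log2 signal on each of the 12 arrays of the 9 member genes that were high on fasted 3, fasted 5 and ad lib 6 (left) and of the epididymis markers Lcn5, Defb1 and Gpx5 (right), with arrays labelled fasted to the left of the vertical line. The member genes are high on the same 3 arrays as Defb1, while Gpx5 is high on fasted 3 and fasted 4.

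The mu genes lie next to each other on chromosome 2, in the RefSeq order Gstm5, Gstm6l, Gstm7, Gstm6, Gstm3, Gstm2, Gstm1 and Gstm4 with a few other genes between them. They are close copies of each other, so that RNA of 1 mu gene may be read by the probe of another, and the values of single mu genes are uncertain for that reason. The promoters of Gstm5 at chr2:198219519-198219768 (plus strand) and Gstm7 at chr2:198260320-198260569 (minus strand) are shown because these neighbours had 2 of the wide spreads between arrays, and they were chosen after their values were seen. Capitals mark TGACNNNGC, which occurs at 2 places in Gstm5, with the first base at -113 and -53 from the transcription start, and at 1 place in Gstm7, at -14. The promoters of Gstm6, Gstm3, Gstm2, Gstm1 and Gstm4 do not hold it in this window.
Gstm5: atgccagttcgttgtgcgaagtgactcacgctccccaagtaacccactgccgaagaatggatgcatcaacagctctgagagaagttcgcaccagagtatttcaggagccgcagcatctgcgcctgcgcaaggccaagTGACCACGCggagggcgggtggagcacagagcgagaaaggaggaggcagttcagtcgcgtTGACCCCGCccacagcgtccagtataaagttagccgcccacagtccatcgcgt
Gstm7: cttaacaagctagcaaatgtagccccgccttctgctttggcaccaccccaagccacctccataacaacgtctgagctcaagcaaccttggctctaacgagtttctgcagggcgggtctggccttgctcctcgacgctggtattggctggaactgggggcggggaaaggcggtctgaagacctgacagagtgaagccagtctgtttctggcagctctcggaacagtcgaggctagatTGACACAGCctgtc

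The microsomal transferases Mgst1 and Mgst2 are membrane enzymes, and Mgst2 can also make leukotriene C4. Mgst2 lay at 12.69, 12.90 and 13.65 in arrays labelled fasted and 12.13, 12.77 and 13.18 in arrays labelled ad lib, so that most of the range was shared. The difference was 0.26 (SE 0.19, p = 0.189 in limma and 0.553 adjusted, exact permutation p = 0.264, not adjusted). It was 0.13 without fasted 3 and 0.14 without ad lib 4. Mgst1 differed by -0.03 (SE 0.10), with a 95% interval of -0.24 to 0.18. After scaling by array medians instead of quantiles, its difference was 0.009 (SE 0.18). Its value on ad lib 4, 15.01, was also the highest of Cfd in both groups, and whether such signals were saturated was not tested.

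Catalase, which breaks down hydrogen peroxide in peroxisomes, had the most negative difference of the members. Cat lay at 10.80, 11.44 and 11.59 in arrays labelled fasted and 11.33, 11.79 and 12.78 in arrays labelled ad lib. Its ad lib arrays were spread widely (SD 0.53), and 2 of them lay within the range of the arrays labelled fasted. The difference was -0.55 (SE 0.22), with a p of 0.0262 in limma (0.237 adjusted) and an exact permutation p, not adjusted, of 0.0411. The difference was -0.54 without the 4 arrays.

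The superoxide dismutases turn superoxide into hydrogen peroxide, Sod1 in the cytosol, Sod2 in mitochondria and Sod3 outside the cell. Their differences were 0.08 (SE 0.15) for Sod1, 0.22 (SE 0.16) for Sod2 and -0.34 (SE 0.20) for Sod3, with adjusted p of 0.848, 0.550 and 0.436. Sod3 was lowest on fasted 3, at 12.09, and 12.93 to 13.19 on the other arrays labelled fasted. Without the 4 arrays the difference of Sod3 was -0.14.

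The peroxiredoxins, thiol peroxidases that are reduced again by thioredoxin or, for Prdx6, by glutathione, had the smallest median SE of the families (0.11). The 95% interval of all 5 lay within a 1.5-fold change. Prdx1, of the cytosol, lay at 14.33, 14.41 and 14.47 in arrays labelled fasted and 13.97, 14.28 and 14.40 in arrays labelled ad lib. The arrays labelled fasted were close together (SD 0.05) near the upper end of the other group. The difference was 0.17 (SE 0.10), with a p of 0.109 in limma (0.436 adjusted). The exact permutation p, not adjusted, was 0.0152. Prdx2, Prdx3, Prdx5 and Prdx6 differed by -0.11, -0.17, 0.09 and 0.02. The mitochondrial enzyme Prdx3 had an interval of -0.41 to 0.07.

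Thioredoxin hands electrons to the peroxiredoxins and is reduced by the thioredoxin reductases. Txn1 had 3 probes, whose differences were 0.18 (ILMN_1371958), 0.05 (ILMN_2038783) and 0.20 (ILMN_2038784), with SE of 0.12, 0.13 and 0.16. The probe ILMN_1371958 lay at 13.24, 13.40 and 13.53 in arrays labelled fasted and 12.77, 13.23 and 13.43 in arrays labelled ad lib, with an adjusted p of 0.503. The probe ILMN_2038783 lay at 14.44 to 14.59 and 14.00 to 14.82, and ILMN_2038784 at 13.51 to 13.85 and 12.87 to 14.00. The arrays labelled fasted lay within the range of the others for both of these probes. Without ad lib 4 the differences of the 3 probes were 0.09, -0.04 and 0.08, and that of Txnrd1 was 0.06. The reductases Txnrd1 (cytosol), Txnrd2 (mitochondria) and Txnrd3 differed by 0.19, -0.15 and -0.09, with adjusted p of 0.709, 0.548 and 0.774. Nqo1, the quinone reductase that is widely read as an NRF2 target, differed by 0.10 (SE 0.14, adjusted p = 0.777), with a 95% interval of -0.19 to 0.40.

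The lists of genes around these enzymes had 24, 8, 11, 17 and 4 tested probes, of which 2 passed the test. Of all 12196 tested probes, 2.47% passed. Txnip binds reduced thioredoxin and holds back glucose uptake. It was at 13.82, 14.07 and 14.27 in arrays labelled fasted and 14.57, 14.67 and 14.74 in arrays labelled ad lib, so the groups did not overlap. Its level was lower in arrays labelled fasted, with a difference of -0.59 (SE 0.10) and an adjusted p of 0.00634 in limma. It was the only call among the 8 tested probes of the thioredoxin-linked list, whose next smallest p was that of Txndc17, a thioredoxin-like protein, at 0.40 (adjusted p = 0.145). Scly, selenocysteine lyase, releases selenium from selenocysteine for the making of selenoproteins such as the glutathione peroxidases. It was at 9.66, 10.15 and 10.49 in arrays labelled fasted and 9.14, 9.37 and 9.62 in arrays labelled ad lib, again without overlap. It was higher in arrays labelled fasted by 0.78 (SE 0.14, adjusted p = 0.00984 in limma), the only call among 4 tested probes of selenoprotein synthesis, where Secisbp2 differed by -0.15. Both calls were lost with chip position as a covariate, at adjusted p of 0.133 for Txnip and 0.155 for Scly, and when arrays were scaled by their medians instead of by quantiles, at 0.127 and 0.106. The differences themselves were then -0.58 and -0.62 for Txnip and 0.79 and 0.75 for Scly.

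**Figure D4:**
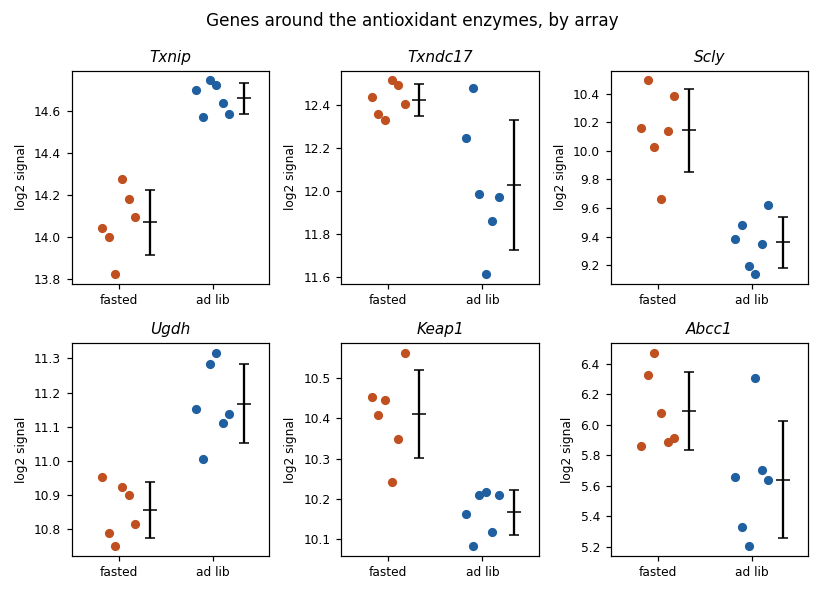
The log2 signal on each array for Txnip, Txndc17, Scly, Ugdh, Keap1 and Abcc1, with 1 point per array and the mean ± SD beside each group (n = 6 labelled fasted, n = 6 labelled ad lib). The groups are apart for Txnip, Scly, Ugdh and Keap1, of which Txnip and Scly passed the adjusted test.

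The glutathione-linked genes outside the rule had 24 tested probes and 0 calls, with 13 above and 11 below 0. The smallest p belonged to Abcc1, an exporter of glutathione conjugates, at 0.45 (SE 0.18, adjusted p = 0.229), and to Oplah, which returns oxoproline to glutamate, at -0.44 (SE 0.20, adjusted p = 0.298). Cbs and Cth, the enzymes of transsulfuration that supply cysteine, lay at 8.30 to 8.96 and 7.52 to 8.40 on fasted 3, fasted 5 and ad lib 6, and at 4.73 to 5.82 and 5.95 to 6.69 on the other 9 arrays. Gpx3, the secreted peroxidase, lay at 13.20 to 13.29 and 12.73 to 13.03 in the same order, and Ggact, which acts on glutamyl-amines, at 6.78 to 9.84 and 5.51 to 6.57. These were the 4 of 27 probes of the list that lay wholly above on the 3 arrays, beside 5.8% of all detected probes, and they were picked out after their values were seen. The list of NADPH supply had 11 tested probes and 0 calls, with Mthfd1 at 0.21 (adjusted p = 0.344) and Nnt at -0.17 (adjusted p = 0.454).

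The NRF2 pathway had 17 tested probes and 0 calls, with 6 above and 11 below 0. Its smallest p were those of Ugdh, which makes UDP-glucuronate, and Keap1, which marks NRF2 for breakdown. Ugdh lay at 10.75 to 10.95 in arrays labelled fasted and 11.01 to 11.32 in arrays labelled ad lib, a difference of -0.31 (SE 0.09, adjusted p = 0.0983 in limma). Keap1 lay at 10.24 to 10.56 and 10.08 to 10.22, a difference of 0.24 (SE 0.09, adjusted p = 0.179 in limma). Of the 24 alternatives, Ugdh was called in 4 and Keap1 in 2, among them array weights, with adjusted p of 0.0400 and 0.0475. The adjusted p were 0.656 and 0.862 after scaling by array medians, and 0.469 and 0.586 with chip position as a covariate. For both the groups did not overlap, as for 2.5% of all tested probes. The exact permutation p was 0.00216, two-sided and not adjusted. It is the smallest that 6 against 6 arrays can give, and every probe without overlap has it.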

How the data were processed

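Epididymal fat RNA of 12 rats was read on 1 Illumina rat bead chip. The authors extracted the values with their array software (Illumina BeadStudio with cubic spline normalization per the study's methods, GenomeStudio per the submitters' notes). Raw intensity per probe and a detection p-value were deposited by the authors for each array, and the authors' normalized intensity values were used as an alternative only. From the raw intensities, background was corrected and quantile normalization applied on the log2 scale (R 4.3.3; limma 3.58.1, function neqc, offset 16). A probe was kept, as 12196 of 22523 were, if 6 or more arrays had a detection p below 0.05. Groups were compared with lmFit and eBayes of limma over all 12 arrays, two-sided, with Benjamini-Hochberg adjustment over all tested probes and a threshold of 0.05; intervals are 95%. Exact permutation p used all 924 assignments of 12 arrays to the groups. As 1 chip was used, its number of arrays limits the precision.

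Genes were named from the platform annotation: 13793 probes had 1 symbol, 0 several and 8730 none. All 42 member genes were found in RefSeq by gene ID. Promoters came from RefSeq (GRCr8), where 35 of the 42 genes had an entry. Probes of 1 gene were kept apart. All members are named by family; per-array values are given for probes past the threshold and for the smallest p of each role group, and in each other list for calls and the 2 smallest p. Members and lists were chosen with earlier results of these data known. Replicates are arrays of separate rats per the study's methods. Fits were tested on simulated data. Alternatives varied background, normalization, offset, filter, variance model, array weights, test, replicate block, chip position and each array in turn.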

Additional observations from a re-analysis of the deposited data

Results flagged for a closer look

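Within the groups of 6 arrays, the gap between the outermost array and its nearest neighbour, as a share of the range, passed Dixon's limit in 11 of the 78 member groups looked at (14.1%), beside 2115 of the 24392 groups of all tested probes (8.67%). Chance flags about 1 in 20 groups of independent values, and these groups share arrays. Fasted 3 was low in 5 of them. Its share was 0.643 for Gpx1 (11.59, the others at 11.88 to 12.05), 0.645 for Gstm4 (7.75, the others at 8.10 to 8.29), 0.664 for Gsto1 (11.82, the others at 12.26 to 12.48), 0.709 for Cat (10.80, the others at 11.36 to 11.59) and 0.759 for Sod3 (12.09, the others at 12.93 to 13.19). The adipocyte markers, summed, were at 16.79 on this array and at 17.01 to 17.09 on the others with its label. Fasted 3 also had 10 of the 13 epididymis markers above 8, with a log2 summed signal of 17.02, the highest of all arrays. The part of either in the low values was not tested. Fasted 4 was low for Gss, with a share of 0.631 (8.28, the others at 8.72 to 8.97).

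Ad lib 6 was high for 3 transferases, with shares of 0.807 for Gsta5 (7.18, the others at 4.33 to 4.88), 0.812 for Gstm5 (12.28, the others at 9.53 to 10.05) and 0.874 for Gstm7 (11.51, the others at 7.23 to 7.77). Of the 13 epididymis markers, 2 were above 8 on this array, Lcn5 at 11.15 and Defb1 at 8.33, while the others, such as Gpx5 at 4.85, were not. The part of epididymis RNA was not tested. Ad lib 4 was low for Gpx1, with a share of 0.667 (11.99, the others at 12.29 to 12.44), and high for Mgst1, with a share of 0.676 (15.01, the others at 14.53 to 14.69). The 15.01 of Mgst1 is the value that quantile normalization also gave to Cfd on other arrays.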

How the results depend on the processing

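Over 24 alternatives, 0 member probes were called higher in any, and 0 lower in all but array weights, which gave 2 (Gpx1 at an adjusted p of 0.0163 and Gsto2 at 0.0278). The members' median difference ran from 0.037 with chip position as a covariate to 0.140 without ad lib 1. Of all tested probes, 301 were called, 103 after scaling by array medians instead of quantiles, 840 with array weights, 32 with chip position in the fit, and 157 (without ad lib 5) to 488 (without fasted 4) with 1 array left out. With the replicate block 178 were called, 0 of them members. Deviations of same-numbered arrays correlated from -0.41 to 0.13, and 0 of 6 arrays correlated best with their own number. These correlations do not settle whether replicate numbers pair the rats. Without the 4 arrays with epididymis markers, chosen after seeing the data, 339 were called, 0 of them members.

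Of 925 values of single members, 890 kept their direction and side of the threshold and 33, of 12 probes, changed sign; the cause was not tested. Changed values were Gsr -0.0141 and Mgst1 0.00924 (scaling by medians), Gsta4 -0.261, Mgst1 0.0416, Sod1 -0.0346, Prdx5 -0.0178, Prdx6 -0.0832 and Txn1 ILMN_2038783 -0.0683 (array weights), Gclm -0.0656, Mgst1 0.0158, Sod1 -0.0581 and Txn1 ILMN_2038783 -0.111 (chip position), Gsta4 -0.343, Gstm1 -0.137, Gstm4 0.0814, Gsto1 0.0539, Prdx6 -0.0922 and Txn1 ILMN_2038783 -0.00192 (without the 4 arrays). With 1 array left out, the range was -0.0221 to 0.114 for Gsr, -0.122 to 0.368 for Gsta4, -0.0751 to 0.532 for Gstm1, -0.116 to 0.0152 for Gsto1, -0.119 to 0.228 for Gstt1, -0.057 to 0.0345 for Mgst1, -0.0572 to 0.0523 for Prdx6, -0.029 to 0.165 for Sod1 and -0.035 to 0.134 for Txn1 ILMN_2038783. Without a change of sign, another 20 of the 39 member probes moved by over 1.5 times when 1 array was left out, and 10 stayed within that, among them Gpx1, Gss, Gstt2, Gsto2 and Cat. Gsta5 is also among the 10, but it fell below the filter whenever an array that detected it was left out. Its dependence on those arrays was thus not examined. Gstm7 ran from 0.03 to 1.82 over all alternatives.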
